A study of Homo sapiens with 6 samples.

Results

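The genes described here are 9 enzymes of the tricarboxylic acid cycle, namely CS, IDH1, IDH2, IDH3A, OGDH, SUCLG1, FH, MDH1 and MDH2. They were picked out by gene symbol, by a rule that uses no measured value but was written with earlier results of these data known, and they make up 9 of the 78932 genes in the deposited count table. The data are RNA-seq read counts from T24, an established human urothelial carcinoma cell line, with or without silencing of TRIM28. TRIM28 is a chromatin corepressor that also acts as a SUMO ligase. The 3 siNC cultures received a control siRNA and the 3 siTRIM28 cultures received siRNA against TRIM28, all by transient transfection in the same medium and in 1 labelled batch. Which TRIM28 siRNA was used and how long after transfection the cells were collected is not given in the sources used here. The 6 libraries are labelled as biological replicates of 1 cell line, so every p-value measures the spread between these libraries only. For the close pairs of libraries described below, the data do not show that they came from separate cultures.

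The tricarboxylic acid cycle runs in the mitochondrial matrix, where it oxidizes acetyl-CoA to carbon dioxide and passes the electrons to NADH and to the respiratory chain. Its intermediates also leave the cycle. Citrate is exported to the cytosol for fatty acid and cholesterol synthesis, and malate carries reducing equivalents across the inner membrane in the malate-aspartate shuttle. Several reactions therefore have a mitochondrial and a cytosolic isozyme, encoded by separate genes, as with IDH2 and IDH1 or MDH2 and MDH1.

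Silencing of TRIM28 was followed by small changes of the cycle enzymes in both directions. Transcripts of CS, OGDH and MDH2 were lower in siTRIM28 than in siNC, those of IDH2, IDH3A and MDH1 were higher, and IDH1, SUCLG1 and FH did not pass the test. The 6 enzymes that passed make up 66.7% of the 9, beside 41.8% of all 18474 genes tested (adjusted p under 0.05, edgeR quasi-likelihood test with Benjamini-Hochberg adjustment over all genes tested). Of the 9 enzymes 3 passed as higher and 3 as lower, beside 21.3% and 20.5% of all genes tested. The libraries of the 2 groups did not overlap for 6 of the 9 enzymes, where this held for 52% of all genes tested. None of the 9 reached an absolute log2 fold change of 0.58 at an adjusted p under 0.05, a threshold that 17% of all genes passed. With unadjusted p under 0.05 the numbers were the same, 6 enzymes without and 0 with the fold threshold. Log2 fold changes of the 9 ranged from -0.42 to 0.34 with a median of -0.08, beside a median of 0.02 over all genes. The sign of the median of the 9 rested on 1 library, since it was 0.01 without siTRIM28 replicate 1. With the 2 closest libraries of each group summed, which leaves 2 against 2 samples, only CS and IDH2 passed, 2 of the 9. In bulk RNA a change in the mix of cells and a change in RNA per cell cannot be told apart.

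Total counts were 12989362 to 13942383 in siNC and 11712623 to 14018052 in siTRIM28, and each of the 54 member values rested on 308 to 2151 counts. TRIM28 itself stood at 102, 101 and 108 CPM (counts scaled by TMM for library size) in siNC and at 9.28, 8.11 and 9.21 CPM in siTRIM28 (log2 fold change -3.54, SE 0.0723, adjusted p 1.03e-10), as the labels say. Of the epithelial markers, KRT8 (103 to 104 CPM in siNC, 109 to 120 CPM in siTRIM28) and KRT18 (81.7 to 89.2 and 90.0 to 93.3 CPM) were present, KRT7 was low (2.66 to 2.96 and 4.14 to 4.31 CPM) and KRT19, EPCAM and CDH1 lay under 1 CPM. KRT8 and KRT7 were higher in siTRIM28 (log2 fold changes 0.14 and 0.56, adjusted p 0.0354 and 0.0126 by edgeR). KRT18 did not pass (adjusted p 0.210 by edgeR). EPCAM, with 6 counts or fewer and not tested, lay at 0.360 to 0.470 CPM in siNC and lower, at 0.143 to 0.253 CPM, in siTRIM28. Of the 6 urothelial differentiation genes UPK1B and KRT20 were at 0 in all 6 libraries. UPK1A, the only one with enough counts to be tested, was low and higher in siTRIM28 (0.314 to 1.22 and 2.87 to 4.14 CPM, log2 fold change 1.94, adjusted p 5.48e-04 by edgeR). UPK2, UPK3A and GATA3 lay under 1 CPM, and the mean of GATA3 was lower in siTRIM28 (0.249 CPM) than in siNC (0.585 CPM). Of the other cell types checked, summed endothelial markers lay between 0.433 and 0.504 CPM in siNC and 0.714 and 1.01 CPM in siTRIM28, with CDH5 at 0 throughout. Summed fibroblast markers lay between 0.784 and 1.44 CPM and between 2.64 and 3.97 CPM, mostly COL1A1, the only 1 of these 4 with enough counts to be tested, and it rose (log2 fold change 1.78). The part of these markers in the results was not tested. Of the leukocyte markers CD3E was at 0 and PTPRC at 4 counts or fewer, whereas CD68, which many tumour lines express, lay between 338 and 361 CPM. The share of reads from mitochondrially encoded genes was 4.95 to 5.29% in siNC and 5.72 to 6.29% in siTRIM28, so it moved with the groups. Its part in the results on the cycle enzymes was not tested.

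Within each group 1 library stood apart from the other 2. The chi-square per degree of freedom between siNC replicates 1 and 2 was 1.08, against 4.17 and 4.22 for each of them with replicate 3. In siTRIM28 it was 1.22 between replicates 2 and 3, against 6.25 and 5.65 with replicate 1. The close pairs differed by a little more than read-counting noise, which does not show that they came from separate cultures. All 6 libraries were counted separately, as their labels have it, and values with the close pairs summed are given where they differ. Results on the enzymes that rest on the libraries that stood apart are given with and without them, except the ratios of subunits.

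Sequences before a RefSeq start site are shown next for the 5 changed enzymes that have one in the reference table. Of these, CS and MDH2 fell while IDH2, IDH3A and MDH1 rose. RefSeq start sites on GRCh38.p14 were matched for 8 of the 9 enzymes (10 start sites, with OGDH the one that was not matched). Each line gives the longest stretch without an annotated exon within the 200 bases before a start site, 5′ to 3′ on the strand of the gene, with capitals for a match on either strand. The letters searched were GGGCGG for a GC box, CCAAT for a box of that name, and for a binding site of ETS factors CCGGAAGT. The stretch of CS lies just upstream of its first exons, within introns of genes that overlap it. That of MDH2 lies between the first exons of MDH2 and of the divergent gene STYXL1, and those of IDH2, IDH3A and MDH1 are intronic for longer transcripts of the same gene.
CS, chr12:56300393-56300530, minus strand: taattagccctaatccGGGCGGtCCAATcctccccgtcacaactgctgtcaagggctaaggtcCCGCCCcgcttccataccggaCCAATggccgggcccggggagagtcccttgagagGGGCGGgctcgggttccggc
MDH2, chr7:76048005-76048050, plus strand: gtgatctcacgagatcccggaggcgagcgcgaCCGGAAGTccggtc
IDH2, chr15:90100696-90100821, minus strand: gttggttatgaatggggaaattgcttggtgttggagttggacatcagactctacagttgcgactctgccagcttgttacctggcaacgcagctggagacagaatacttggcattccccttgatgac
IDH3A, chr15:78149162-78149320, plus strand: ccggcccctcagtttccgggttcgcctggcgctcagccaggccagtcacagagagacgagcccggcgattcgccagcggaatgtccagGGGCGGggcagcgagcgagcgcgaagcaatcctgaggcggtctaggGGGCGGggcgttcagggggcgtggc
MDH1, chr2:63589047-63589145, plus strand: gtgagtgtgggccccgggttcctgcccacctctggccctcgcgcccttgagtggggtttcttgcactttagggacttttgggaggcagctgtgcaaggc

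The CS stretch held 3 GC boxes and 2 CCAAT boxes, that of IDH3A 2 GC boxes and that of MDH2 1 ETS site, and no matches overlapped. Those of IDH2 and MDH1 held none of these letters. The stretches of IDH2, IDH3A and MDH1 lie inside the loci given in the count table. Sequence before the 5′ ends of these loci was not searched. Another MDH1 start site had no stretch free of exons and is not shown. Over the whole 200 bases, a GC box was found at 4 of the 10 member start sites (40.1% of all 35116 start sites), a CCAAT box at 3 (28.0%) and an ETS site at 1 (3.19%). The core of the NRF1 site (CGCATGCG, 1.61% of all) and a site of the estrogen-related receptors (TCAAGGTCA, 0.262% of all) matched none of the 10. A match is only a match of letters. The stretches shown range from 46 bases for MDH2 to 159 bases for IDH3A, so their matches cannot be compared between enzymes that fell and rose.

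Citrate synthase, the product of CS (ENSG00000062485, GRCh38 chromosome 12, 56271699 to 56300379, minus strand), joins acetyl-CoA and oxaloacetate into citrate and opens the cycle. CS stood at 59.0, 55.1 and 61.6 CPM in siNC and at 40.7, 42.8 and 47.8 CPM in siTRIM28. All siTRIM28 libraries lay under all siNC libraries, and the fall was larger than the spread within either group. The mean went from 58.6 ± 3.28 to 43.8 ± 3.64 CPM (SD, n = 3 each), and CS fell by 25.3% in the fit (95% interval -33.1 to -16.6%). With all 6 libraries CS had the lowest adjusted p of the 9 enzymes (log2 fold change -0.42, SE 0.0723, adjusted p 6.41e-04 by edgeR). Its call held in each of 16 alternative analyses, with log2 fold changes of -0.49 to -0.33. CS shares 14464 bases of its locus with ENSG00000144785 on the same strand and 341 bases with CNPY2-AS1 on the opposite strand. Both of these genes were lower too (log2 fold changes -0.26 and -0.28, adjusted p 0.00398 and 0.00255 by edgeR), and how the counting treated shared bases and strand is not stated, so reads of the 3 genes cannot be told apart with certainty.

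The 3 genes whose CPM on a log2 scale followed that of CS most closely over the 6 libraries, among 12827 with a mean of at least 50 counts, were CHERP, IPO4 and ENSG00000259522. Their Pearson correlations with CS were 0.999, 0.997 and 0.997. Their log2 fold changes were -0.23, -0.30 and -0.29, smaller in size than that of CS. These values only describe 6 libraries, 3 of each group.

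After citrate is isomerized to isocitrate, isocitrate dehydrogenases make 2-oxoglutarate. Human cells have 3 such activities, a cytosolic and peroxisomal NADP-dependent enzyme (IDH1), a mitochondrial NADP-dependent enzyme (IDH2) and the mitochondrial NAD-dependent complex whose catalytic subunit is IDH3A. The mitochondrial pair rose and the cytosolic enzyme did not pass the test.

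IDH2 (ENSG00000182054, chromosome 15, 90083045 to 90102477, minus strand) stood at 30.0, 31.6 and 29.3 CPM in siNC and at 34.4, 40.8 and 38.7 CPM in siTRIM28. The groups did not overlap, and siTRIM28 replicate 1 was the lowest of its group. IDH2 was 25.2% higher in siTRIM28 (95% interval 11.9 to 40.0%, log2 fold change 0.32, SE 0.0738, adjusted p 0.00413 by edgeR). The 16 alternatives all gave the same call, with log2 fold changes of 0.26 to 0.39.

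IDH3A (ENSG00000166411, chromosome 15, 78131498 to 78171255, plus strand) stood at 28.9, 31.1 and 30.0 CPM in siNC and at 34.5, 35.0 and 34.6 CPM in siTRIM28. The siTRIM28 libraries agreed closely (mean 34.7 ± 0.29 CPM, SD, n = 3) and all lay over the siNC libraries (30.0 ± 1.09 CPM). IDH3A was 15.6% higher in siTRIM28 (95% interval 5.49 to 26.7%, log2 fold change 0.21, SE 0.0602, adjusted p 0.0153 by edgeR). This call was lost in 4 of 16 alternatives: with DESeq2 (adjusted p 0.106), with no low-count filter (0.0626), without siNC replicate 1 (0.0786) and with the close libraries summed (0.0796).

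IDH1 (ENSG00000138413, chromosome 2, 208236229 to 208266074, minus strand) stood at 28.4, 29.9 and 31.1 CPM in siNC and at 24.4, 30.7 and 29.4 CPM in siTRIM28. The groups overlapped, and only siTRIM28 replicate 1 lay outside the siNC range. The log2 fold change was -0.08 with a 95% interval of -0.27 to 0.10 (adjusted p 0.465 by edgeR). Without siTRIM28 replicate 1 it became 0.01, so the sign rested on that library. IDH1-AS1, an antisense gene within the IDH1 locus, had 88 to 147 counts per library and did not pass the test (log2 fold change -0.10, adjusted p 0.704).

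**Figure D1:**
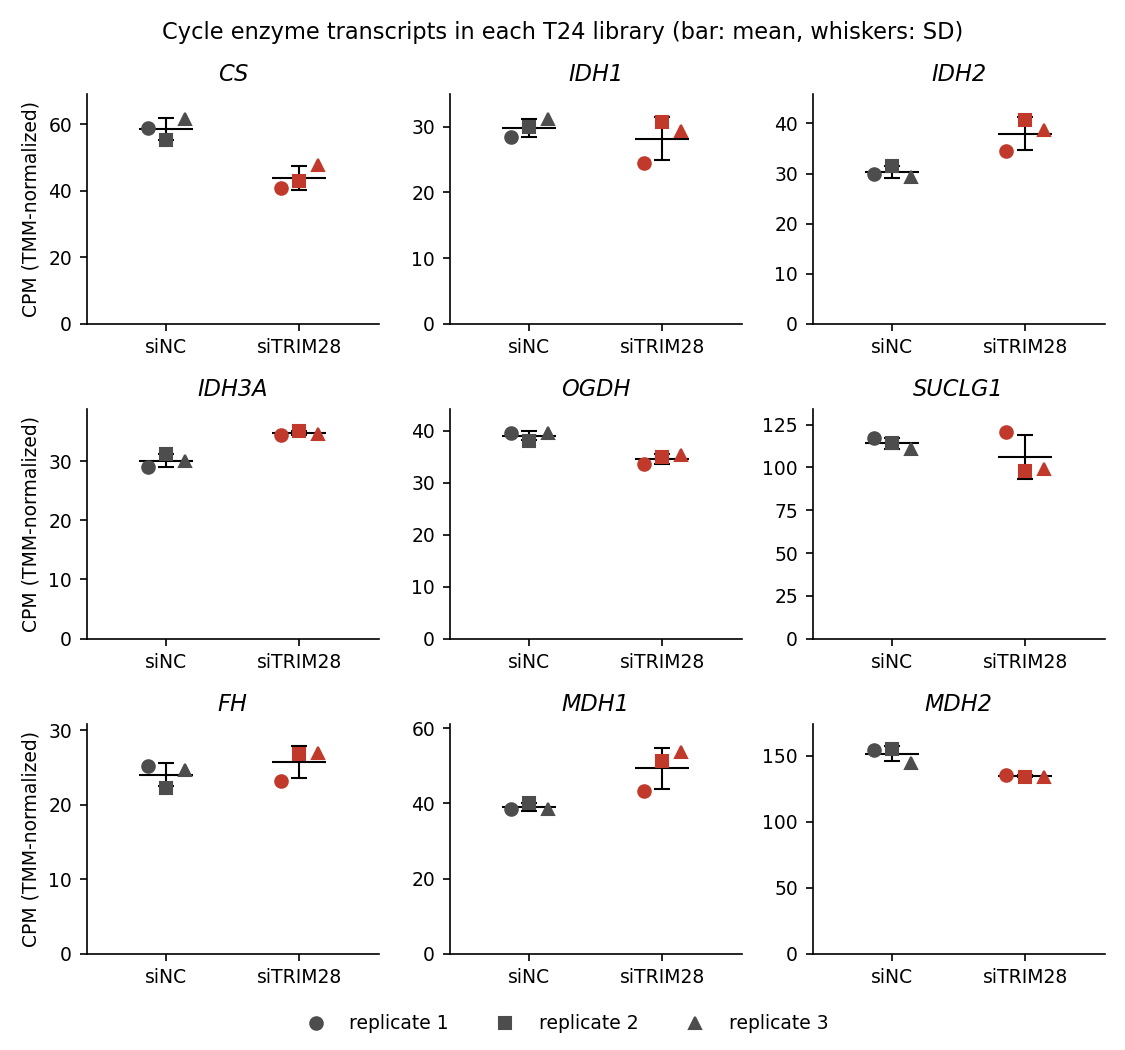
CPM (TMM-normalized, linear axis from 0) of the 9 cycle enzymes in each library, siNC in grey and siTRIM28 in red, with marker shape for the replicate, a bar for the mean and whiskers for the SD. The groups are apart for CS, IDH2, IDH3A, OGDH, MDH1 and MDH2 and overlap for IDH1, SUCLG1 and FH, where siTRIM28 replicate 1 (circle) lies away from replicates 2 and 3.

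The next 2 reactions make succinyl-CoA and then succinate. OGDH is the first component of the 2-oxoglutarate dehydrogenase complex, and SUCLG1 is the alpha subunit that both forms of succinyl-CoA synthetase share.

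OGDH (ENSG00000105953, chromosome 7, 44606572 to 44709066, plus strand) stood at 39.5, 38.0 and 39.6 CPM in siNC and at 33.6, 35.0 and 35.3 CPM in siTRIM28. The groups did not overlap, with a gap of a few CPM between the lowest siNC and the highest siTRIM28 library. OGDH fell by 11.4% in the fit (log2 fold change -0.17, SE 0.0589, 95% interval -0.30 to -0.05, adjusted p 0.0330 by edgeR). OGDH had the highest adjusted p of the 6 that passed, and it lost its call in 10 of 16 alternatives, among them DESeq2 (adjusted p 0.143) and upper-quartile scaling (0.0826). Its direction held in all 16, from -0.20 to -0.14.

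SUCLG1 (ENSG00000163541, chromosome 2, 84423528 to 84460045, minus strand) stood at 117, 114 and 111 CPM in siNC and at 121, 98.1 and 99.0 CPM in siTRIM28. Replicate 1 of siTRIM28 was the highest of the 6 libraries, and replicates 2 and 3 were the lowest. The log2 fold change was -0.11 with a 95% interval of -0.27 to 0.06 (adjusted p 0.278 by edgeR). Without siTRIM28 replicate 1 it was -0.21 and passed the threshold (adjusted p 5.75e-04), as it did without both libraries that stood apart (-0.23, adjusted p 1.13e-04).

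Fumarase, encoded by FH (ENSG00000091483, chromosome 1, 241497511 to 241519785, minus strand), hydrates fumarate to malate in mitochondria and also occurs in the cytosol. FH stood at 25.1, 22.2 and 24.6 CPM in siNC and at 23.2, 26.9 and 26.9 CPM in siTRIM28. The groups overlapped through siTRIM28 replicate 1. The log2 fold change was 0.09 with a 95% interval of -0.08 to 0.27 (adjusted p 0.376 by edgeR), and it did not pass in any of 16 alternatives (0.04 to 0.18, lowest adjusted p 0.0543).

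Malate dehydrogenase closes the cycle by turning malate into oxaloacetate. MDH2 is the mitochondrial enzyme of the cycle, and MDH1 is its cytosolic counterpart in the malate-aspartate shuttle. The 2 genes moved in opposite directions.

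MDH2 (ENSG00000146701, chromosome 7, 76048051 to 76067067, plus strand) stood at 155, 155 and 145 CPM in siNC and at 136, 134 and 134 CPM in siTRIM28. The siTRIM28 libraries lay within a narrow range, under all siNC libraries (135 ± 0.836 against 152 ± 5.86 CPM, SD, n = 3 each). MDH2 fell by 11.2% in the fit (log2 fold change -0.17, SE 0.0439, 95% interval -0.27 to -0.08, adjusted p 0.00809 by edgeR). Its call was lost without siNC replicate 2 (adjusted p 0.0507) and with the close libraries summed (0.0977).

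MDH1 (ENSG00000014641, chromosome 2, 63588609 to 63607194, plus strand) stood at 38.4, 40.2 and 38.4 CPM in siNC and at 43.3, 51.3 and 53.7 CPM in siTRIM28. All siTRIM28 libraries were higher than all siNC libraries, replicate 1 by the least. MDH1 was 26.4% higher (log2 fold change 0.34, SE 0.0797, 95% interval 0.16 to 0.51, adjusted p 0.00506 by edgeR), a rise close to that of IDH2. Only summing the close libraries took the call away (0.29, adjusted p 0.0677).

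**Figure D2:**
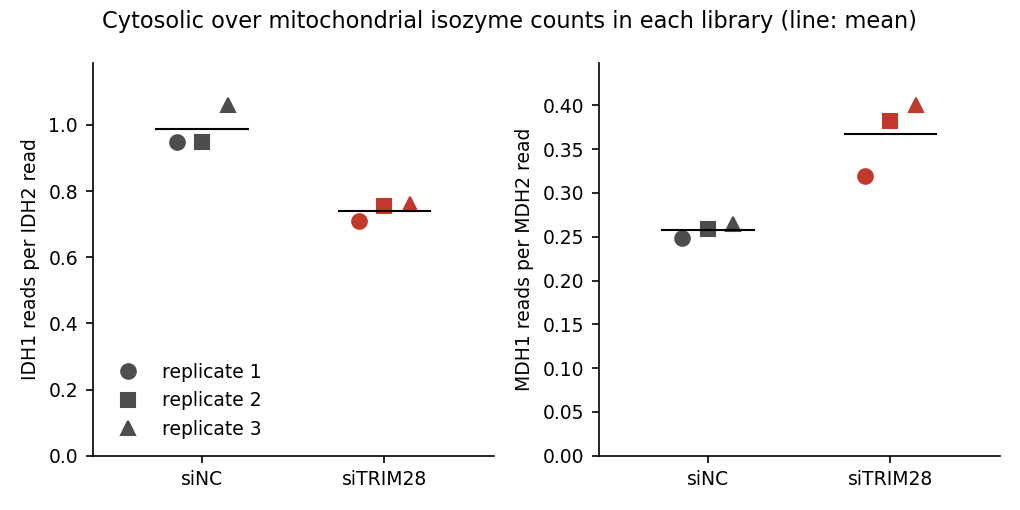
Counts of the cytosolic isozyme per count of the mitochondrial one in each library (linear axes from 0), for IDH1 over IDH2 on the left and MDH1 over MDH2 on the right, with a line for the mean. The IDH ratio is lower in all siTRIM28 libraries (0.710 to 0.760) than in siNC (0.947 to 1.06), and the MDH ratio is higher (0.319 to 0.400 against 0.248 to 0.265).

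A ratio of 2 genes within a library does not depend on how libraries are scaled. It is given here in counts, without scaling for gene length, so only its change between groups can be read. Per IDH2 count there were 0.950, 0.947 and 1.06 IDH1 counts in siNC and 0.710, 0.754 and 0.760 in siTRIM28. The log2 ratio went from -0.02 ± 0.094 to -0.43 ± 0.054 (SD, n = 3 each), a difference of -0.41 (p = 0.1 by exact two-sided permutation, the lowest value that 3 against 3 libraries allow). Per MDH2 count there were 0.248, 0.259 and 0.265 MDH1 counts in siNC and 0.319, 0.382 and 0.400 in siTRIM28. Its log2 ratio went from -1.96 ± 0.048 to -1.45 ± 0.173, a difference of 0.51 (p = 0.1 by exact two-sided permutation). The balance of cytosolic to mitochondrial transcripts thus moved in opposite directions for the 2 pairs, towards the mitochondrial isozyme for IDH and towards the cytosolic one for MDH. Neither direction turned when any 1 library was left out (differences of -0.44 to -0.36 for IDH and 0.44 to 0.60 for MDH).

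**Figure D3:**
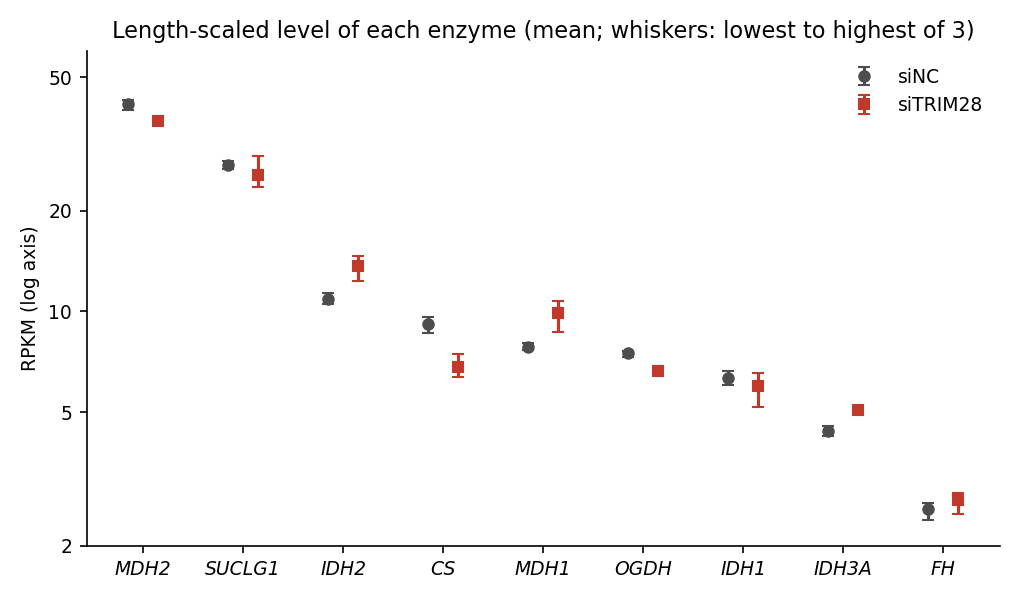
Length-scaled level (RPKM, log axis) of each enzyme in siNC (grey circles) and siTRIM28 (red squares), as the mean of 3 libraries with whiskers from the lowest to the highest, in the order of the siNC means. MDH2 is at the top with 41.7 RPKM in siNC and FH at the bottom with 2.57 RPKM, and CS and MDH1 change places in siTRIM28.

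Per gene length, the 9 enzymes spanned more than an order of magnitude within the same libraries. Means in siNC, in CPM per kilobase of the gene length in the count table (RPKM), were 41.7 ± 1.61 for MDH2, 27.4 ± 0.791 for SUCLG1, 10.9 ± 0.415 for IDH2 and 9.15 ± 0.512 for CS (SD, n = 3). They were 7.82 ± 0.208 for MDH1, 7.49 ± 0.174 for OGDH, 6.35 ± 0.286 for IDH1, 4.40 ± 0.160 for IDH3A and 2.57 ± 0.164 for FH. The 3 libraries of each enzyme did not overlap with those of its neighbours in this order. In siTRIM28 MDH1 (8.67 to 10.8 RPKM) took the fourth place from CS (6.36 to 7.47 RPKM), and the ranges of CS and OGDH (6.44 to 6.78 RPKM) and of OGDH and IDH1 (5.20 to 6.54 RPKM) overlapped. The other ranks were as in siNC. The lengths are those given in the count table (2787 bases for IDH2 to 9350 bases for FH), and how they were derived is not stated. How reads that CS shares with the overlapping gene ENSG00000144785 were counted is not stated either, so the level and rank of CS are less certain.

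The subunits and partners of these enzymes were described by 12 other genes of the cycle. Of these 6 passed the test (50%, beside 41.8% of all genes tested), 2 higher and 4 lower, with a median log2 fold change of -0.04 and 1 gene past the fold threshold. That gene was DLST, the succinyltransferase core of the OGDH complex, at 87.1, 85.8 and 93.5 CPM in siNC and 53.8, 59.0 and 62.7 CPM in siTRIM28. DLST did not overlap between groups and fell by 34.2% (log2 fold change -0.60, SE 0.0643, adjusted p 1.81e-05 by edgeR). ACO1, a cytosolic aconitase that also acts as an iron-responsive RNA-binding protein, did not pass (48.7 to 53.5 and 45.8 to 51.8 CPM, log2 fold change -0.05, 95% interval -0.19 to 0.10).

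The partners of IDH3A did not follow it. IDH3B, a regulatory subunit of the same complex, fell from 153 to 162 CPM in siNC to 131 to 141 CPM in siTRIM28 (log2 fold change -0.21, adjusted p 0.00309 by edgeR), and IDH3G did not pass (50.4 to 54.7 and 49.1 to 52.6 CPM, 95% interval -0.17 to 0.09). The IDH3A to IDH3B log2 ratio differed by 0.42 between groups and the OGDH to DLST log2 ratio by 0.43, without overlap (p = 0.1 for each by exact two-sided permutation, the lowest value possible). These subunit ratios were chosen after the values were seen. DLD, the third component of the OGDH complex, did not pass (155 to 163 and 158 to 167 CPM, 95% interval -0.08 to 0.11).

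Both beta subunits that pair with SUCLG1 fell. SUCLG2, of the GDP-forming enzyme, ranged from 55.4 to 55.8 CPM in siNC and from 45.9 to 48.0 CPM in siTRIM28 (log2 fold change -0.23, adjusted p 0.00479 by edgeR). SUCLA2, of the ADP-forming enzyme, ranged from 49.5 to 54.4 CPM in siNC and from 42.3 to 45.5 CPM in siTRIM28 (log2 fold change -0.21, adjusted p 0.0193 by edgeR). SUCLA2 lost its call in 3 of 16 alternatives, whereas SUCLG2 kept its call in all 16. The SUCLG1 to SUCLG2 and SUCLG1 to SUCLA2 log2 ratios overlapped between groups (differences 0.12 and 0.10, exact permutation p = 0.2 and 0.7). In siTRIM28 the highest of these ratios, 1.33 and 1.51, were those of replicate 1, and they were not computed without that library. SUCLG1 itself had a log2 fold change of -0.21 without it.

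Succinate dehydrogenase, the complex that feeds electrons straight into the respiratory chain, had 1 of its 4 subunits past the threshold. The iron-sulfur subunit SDHB ranged from 56.1 to 61.7 CPM in siNC and from 63.0 to 72.3 CPM in siTRIM28 (log2 fold change 0.19, adjusted p 0.0364 by edgeR), a call that 8 of 16 alternatives did not give. The flavoprotein subunit SDHA (149 to 177 and 165 to 178 CPM) and the membrane anchor SDHD (23.1 to 27.2 and 24.3 to 28.1 CPM) overlapped between groups. The other anchor, SDHC, did not overlap (12.1 to 13.3 and 9.37 to 11.6 CPM) and lay just outside the threshold (log2 fold change -0.26, adjusted p 0.0542 by edgeR). It passed in 4 of 16 alternatives.

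**Figure D4:**
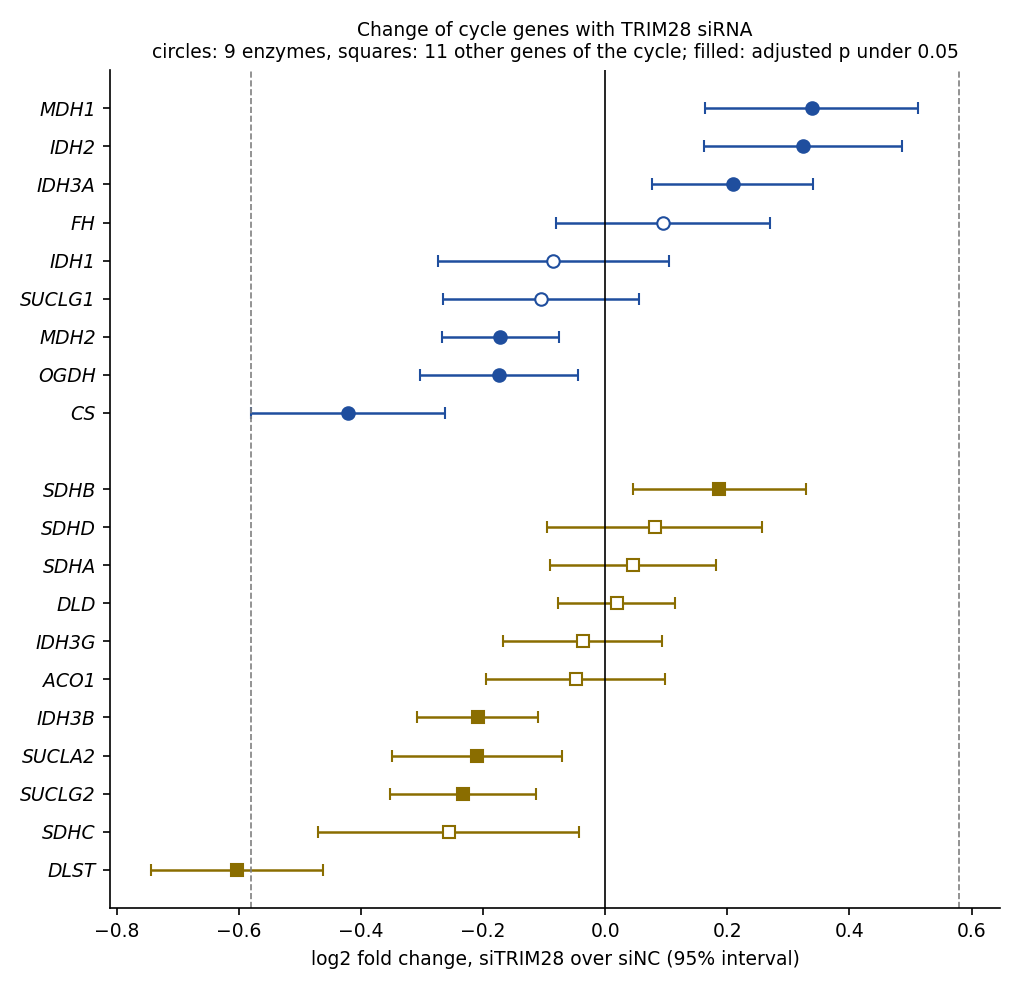
Log2 fold change of siTRIM28 over siNC with its 95% interval for the 9 enzymes (circles) and 11 of the 12 other genes of the cycle (squares), filled where the adjusted p is under 0.05, with dashed lines at an absolute log2 fold change of 0.58. Filled symbols lie on both sides of 0 in each set, and of the 20 genes shown DLST alone lies past a dashed line, at -0.60.

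The supply of pyruvate carbon to CS was described by 13 genes, of which 12 could be tested and 5 passed, 2 higher and 3 lower (median log2 fold change 0.03). This share of 41.7% is close to the 41.8% of all genes tested. PDK4 was not tested, with at most 1 count per library. DLAT, the acetyltransferase core of the pyruvate dehydrogenase complex, had 39.5, 38.3 and 39.0 CPM in siNC and 22.7, 21.1 and 24.2 CPM in siTRIM28. The groups were far apart, and DLAT fell by 41.7% (log2 fold change -0.78, SE 0.0672, adjusted p 3.31e-06 by edgeR). DLAT and DLST are the core components of sister complexes, and both fell, while DLD, which the complexes share, did not pass. The fall was not particular to the cores, since PDHA1 of the pyruvate dehydrogenase complex was lower too (log2 fold change -0.25, adjusted p 8.14e-04 by edgeR). PDHB and PDHX of that complex did not pass (adjusted p 0.444 and 0.149 by edgeR).

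Among the kinases that inhibit pyruvate dehydrogenase, 1 rose and 1 fell. PDK1 had 21.8, 24.2 and 22.5 CPM in siNC and 31.6, 36.3 and 34.2 CPM in siTRIM28 (log2 fold change 0.57, SE 0.0734, adjusted p 7.26e-05 by edgeR). PDK3 had 15.6, 16.3 and 16.2 CPM in siNC and 9.21, 11.1 and 11.7 CPM in siTRIM28 (log2 fold change -0.59, SE 0.0939, adjusted p 3.53e-04 by edgeR). Neither gene overlapped between groups.

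Genes that fill the cycle or carry its intermediates across the membrane numbered 15, of which 7 passed, 4 higher and 3 lower (46.7%, beside 41.8% of all genes tested, median log2 fold change 0.08). The largest change was that of GOT2, the mitochondrial aspartate aminotransferase, with 55.9, 53.2 and 53.8 CPM in siNC and 19.2, 19.7 and 22.1 CPM in siTRIM28. GOT2 fell by 62.6% (log2 fold change -1.42, SE 0.0694, adjusted p 4.23e-08 by edgeR), far beyond any change among the 9 enzymes. Its cytosolic counterpart GOT1 had 27.4, 30.2 and 31.5 CPM in siNC and 37.2, 41.0 and 39.2 CPM in siTRIM28, and rose (log2 fold change 0.40, adjusted p 8.21e-04 by edgeR).

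SLC25A13, a mitochondrial carrier that exchanges aspartate for glutamate, had 35.1, 35.6 and 32.5 CPM in siNC and 50.3, 51.5 and 55.7 CPM in siTRIM28, and rose (log2 fold change 0.61, SE 0.0661, adjusted p 2.02e-05 by edgeR). GLUD1, which turns glutamate into 2-oxoglutarate, had 130, 125 and 132 CPM in siNC and 102, 99.7 and 109 CPM in siTRIM28, and fell (log2 fold change -0.32, adjusted p 3.24e-04 by edgeR). SLC25A1, the citrate carrier that brings the product of CS to the cytosol, had 35.9, 36.0 and 33.6 CPM in siNC and 31.5, 25.1 and 28.2 CPM in siTRIM28, and fell as well (log2 fold change -0.31, adjusted p 0.00913 by edgeR). None of these genes overlapped between groups.

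The malate-aspartate shuttle joins MDH1, MDH2, GOT1, GOT2 and the carriers SLC25A11, SLC25A12 and SLC25A13, a grouping made after the values were seen and therefore given without a test. Its cytosolic enzymes MDH1 and GOT1 were higher in siTRIM28 and its mitochondrial enzymes MDH2 and GOT2 were lower. SLC25A12, the other aspartate-glutamate carrier, and SLC25A11, the oxoglutarate-malate carrier, did not pass (log2 fold changes -0.02 and 0.11, 95% intervals -0.20 to 0.16 and -0.12 to 0.34).

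Glycolysis, the route that delivers pyruvate, is set beside the cycle by its counts only. Of 17 glycolytic enzymes 14 passed (82.4%, beside 41.8% of all genes tested), 11 higher and 3 lower, with a median log2 fold change of 0.37. Over all genes tested 21.3% passed as higher and 20.5% as lower. Of the 9 cycle enzymes 3 were higher and 3 lower, with a median of -0.08 (0.01 without siTRIM28 replicate 1). The difference between the lists was not tested.

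**Figure D5:**
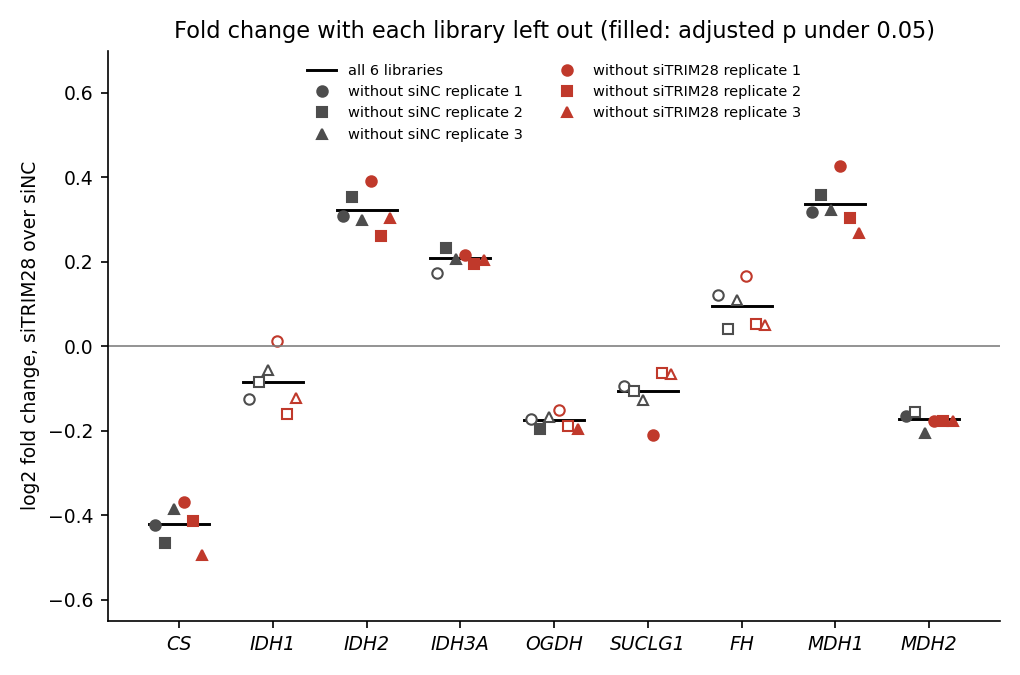
Log2 fold change of the 9 enzymes with all 6 libraries (black line) and with each library left out in turn (grey for siNC, red for siTRIM28, marker shape for the replicate), filled where the adjusted p is under 0.05. CS, IDH2 and MDH1 keep their sign and their call throughout, IDH1 crosses 0 without siTRIM28 replicate 1, and SUCLG1 passes the threshold only without that library.

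The library that stood apart in siTRIM28 touched the enzymes unequally. Against the mean of replicates 2 and 3, replicate 1 of siTRIM28 differed by -0.30 on the log2 scale for IDH1, -0.28 for MDH1, -0.21 for FH, -0.21 for IDH2 and -0.15 for CS, and by 0.29 for SUCLG1. It was nearly level for IDH3A (-0.01) and MDH2 (0.02). With both libraries that stood apart left out, 2 against 2, 6 enzymes still passed, 3 higher and 3 lower. SUCLG1 then passed and OGDH (-0.14, adjusted p 0.0792 by edgeR) did not.

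The close copies that were looked up took few reads, but they include no pseudogene of IDH2, IDH3A, OGDH, SUCLG1 or MDH2. The annotated pseudogenes CSP1, CSP2, FHP1, FHP2, IDH1P1, MDH1P1 and MDH1P2 had 0 to 4 counts per library, and the paralogs OGDHL and MDH1B had 0 to 6 and 3 to 11 counts. MDH1 lies within WDPCP on the opposite strand (39 to 64 counts) and IDH3A overlaps ACSBG1 (81 to 114 counts). Neither of these neighbours passed the test (adjusted p 0.227 and 0.211 by edgeR).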

How the data were processed

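Poly(A)-selected stranded RNA-seq of 6 T24 cultures (3 siNC, 3 siTRIM28) was used. The table deposited by the authors holds raw read counts, one row per gene, on GRCh38. The submitters' processing notes name fastp 0.23.1, STAR 2.7.6a and featureCounts. The annotation release, the strand setting and any removal of duplicate reads are not given in the sources used here. A second deposited table, of RPKM values for genes selected by the authors as differentially expressed, was not used.

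A gene entered the test when 3 or more of the 6 libraries had 10 or more counts, which kept 18474. After TMM scaling, the quasi-likelihood functions of edgeR 4.0.16 (R 4.3.3) compared siTRIM28 with siNC with no other term, with Benjamini-Hochberg adjustment over all of them and a threshold of 0.05. The fold threshold of 0.58 (log2) is the one that the study's methods state for its cohorts. The SE is the absolute log2 fold change over the square root of F. CPM are TMM-normalized and RPKM were computed from them and the lengths in the count table. Ratios within a library were compared by exact permutation. The fit was tested on simulated data. Alternatives used limma 3.58.1 and DESeq2 1.42.0, other scalings and filters, a block on the replicate number, and left-out or summed libraries. At these depths the common biological coefficient of variation was 0.0733. Figures were drawn with matplotlib 3.10.9.

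All 9 members were named. From the 12 other cycle genes each was given by its range, except 1 that is not reported here, and from these, pyruvate entry and anaplerosis every gene that passed the test with a log2 fold change of 0.3 or more in size. The members and gene lists were chosen with earlier results of these data known. Start sites come from RefSeq on GRCh38.p14, and exons around them from GENCODE.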

Additional observations from a re-analysis of the deposited data

How the results depend on the processing

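The 6 enzymes called became 2 (CS and IDH2) when siNC replicates 1 and 2 and siTRIM28 replicates 2 and 3 were summed, which leaves 2 against 2 samples, and 4 to 6 under the other alternatives and with each library left out. The median of the 9 was 0.0432 with both libraries that stood apart left out, and -0.0944 to 0.0136 with each library left out. IDH1 turned to 0.0432 without both, and lay between -0.160 and 0.0136 with each library left out, positive only without siTRIM28 replicate 1. Without both, ACO1 turned to 0.0403, IDH3G to 0.0231, SDHA to -0.0532 and SDHD to -0.0197. With each library left out, SDHA lay between -0.0291 and 0.0844, negative without siNC replicate 3. DLD lay between -0.0176 and 0.0318, negative without siTRIM28 replicate 2 and, at -0.00316, without siNC replicate 3. None of these turned values passed the test, and the cause was not tested. The whole table gave 5393 (at an adjusted p under 0.01) to 8130 genes against 7723, and the share of rises among them was 51.1%, and from 48.0% (close libraries summed) to 56.6% (upper-quartile scaling) under the alternatives. No sign was found that replicate numbers pair the cultures (correlations of same-numbered deviations 0.0523, -0.0118 and 0.0374), and not every library correlated best with its own number. With 3 libraries per group, 1 of them apart, this check cannot settle whether cultures were paired. The replicate block gave 7910 genes and 6 enzymes. In all, 585 values stayed the same by the rule for their kind, 28 lost the threshold, 6 gained it and 9 changed sign. Another 3 shifted by more than the spread or the 1.5-fold limit for counts. For a single gene the rule was direction and side of the threshold, and for an isozyme ratio direction. For counts of genes it was the 1.5-fold limit, and for the median of the 9 the spread between libraries.

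The design of 3 against 3 libraries of 1 cell line cannot give a permutation p under 0.1. Reads shared between overlapping genes, isoforms, protein and enzyme activity were not analysed here, and the culture behind each library that stood apart is not described in the labels.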
